A study of Homo sapiens with 6 samples.

Results

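The genes described here encode integrins, laminins and the proteins of focal adhesions. They were chosen by symbol and gene type alone, as the protein-coding genes of the count table named as integrin alpha or beta subunits, laminin chains, talins, kindlins (FERMT1 to FERMT3), ILK, the parvins PARVA and PARVB, LIMS1, PTK2, PXN, BCAR1, ZYX, VCL, the alpha-actinins ACTN1 and ACTN4, filamins and tensins. The rule gave 53 of the 30618 genes in the table, and no measured value entered it. These genes, and the lists and pairs below, were however chosen with earlier results of these data known. ARPE-19, an established human retinal pigment epithelial line, was kept in 50 mM glucose in both groups. The NC group received a negative control siRNA and the siEIF1 group an siRNA against EIF1, which encodes a translation initiation factor, and each group had 3 libraries. Both groups thus share the cell line and the high glucose, and cells in normal glucose were not analysed here. The knockdown is transient, in a single cell line, and the time between transfection and RNA collection is not given for the sequenced cells in the sources used here.

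Integrins are receptors made of an alpha and a beta subunit that span the cell membrane. Outside the cell they bind laminins, fibronectin, collagens and other matrix proteins, and inside it they are joined to actin through talin, kindlin, vinculin, filamin and alpha-actinin. Laminins are trimers of an alpha, a beta and a gamma chain and are main components of basement membranes. In the eye, retinal pigment epithelial cells rest on Bruch's membrane, whose inner layer is the basement membrane of this epithelium.

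EIF1 itself stood at FPKM values (fragments mapped to a gene, divided by its transcript length and by the size of the library) of 294.35, 281.08 and 281.28 in the NC and 24.28, 22.68 and 23.50 in the siEIF1 libraries, so the labels matched the target. The libraries held between 26499929 and 31431479 counts. Of the retinal pigment epithelium markers, BEST1 was the most abundant, with FPKM values of 70.79, 66.58 and 60.54 for NC and 62.06, 55.04 and 38.79 for siEIF1, and it was not called (log2 fold change -0.32, adjusted p = 0.106). OTX2 ranged from 17.51 to 19.18 FPKM over all libraries and MITF from 5.46 to 5.89, while TYR did not exceed 0.02 and LRAT did not exceed 0.14. RPE65 and TTR were not analysed here. The 8 of 10 such markers in the FPKM table summed to between 87.0 and 96.8 FPKM in NC libraries and to between 66.2 and 89.8 in siEIF1 libraries, with 1, RLBP1, called higher. BEST1 made up most of each sum, and whether its counts hold reads of overlapping genes was not looked at. Summed endothelial markers stayed at or under 0.26 FPKM and neural retina markers at or under 0.07. Of the leukocyte list only CD68 passed the filter on low counts, and CD14, LYZ and CD3E were at or near 0. The epithelial keratins KRT8 and KRT18 and the mesenchymal genes VIM and ACTA2 were called higher in the siEIF1 group, with log2 fold changes of 0.24, 0.25, 0.30 and 0.66. Summed over their lists, the epithelial markers ran from 430 to 454 FPKM in the NC and from 504 to 526 in the siEIF1 libraries, and the mesenchymal markers from 847 to 870 and from 1024 to 1090. KRT8 and KRT18 made up nearly all of the epithelial sums and VIM nearly all of the mesenchymal sums. CDH1 and EPCAM did not exceed 0.04 FPKM, KRT19 did not exceed 0.22 and COL1A2 did not exceed 0.01. KRT19, TJP1, CDH2 and COL1A1 were tested and not called. The part of these markers in the results below was not tested.

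The most abundant integrin alpha subunit was ITGA3, which pairs with ITGB1 to form a laminin receptor, at 187.27 ± 14.1 FPKM in the NC group (mean ± SD, n = 3, here and below). It made up 75.9% ± 1.10 of the FPKM of all alpha subunits. ITGA5, the alpha subunit of a fibronectin receptor, followed at 19.9 ± 1.06, then ITGA7 at 15.8 ± 1.07, ITGAV at 11.7 ± 0.439 and ITGA6 at 9.49 ± 1.12. ITGA5 and ITGA7 did not overlap in the NC libraries, and ITGAV and ITGA6 were also apart there, the lowest ITGAV value being 11.31 and the highest ITGA6 value 10.78. ITGA1, ITGA4 and ITGA2 lay at or under 1.0 FPKM in every NC library, and ITGA9, ITGA10 and ITGA11 at or under 0.05.

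Among beta subunits ITGB5, a partner of ITGAV in receptors for vitronectin, led with 68.6 ± 2.25 FPKM in the NC group, ahead of ITGB1 with 25.1 ± 1.93 and ITGB4 with 9.47 ± 1.021. ITGB3 and ITGB8, which also pair with ITGAV, stood at 2.07 ± 0.433 and 0.997 ± 0.123. ITGB2, ITGB6 and ITGB7 did not exceed 0.09 in any library and were too low to test. The length by which the FPKM values divide the counts was longer than the main transcript of the gene. The length implied by the counts was 17865 bases for ITGB1, against 3735 bases for its canonical transcript in GENCODE release 44. With counts per kilobase of canonical transcript, ITGB5 and ITGB1 stood nearly level, at 47.2% and 45.8% of the beta subunits, in place of 64.5% and 23.6% by FPKM. ITGA3 remained far ahead of the other alpha subunits, with 81.2%.

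Of the laminin chains, LAMB2 (46.04 ± 3.32 FPKM in NC), LAMC1 (24.2 ± 0.664) and LAMA4 (13.7 ± 0.280) were the highest of the beta, gamma and alpha chains. LAMA5 was next among the alpha chains at 6.29 ± 0.252. LAMA3 and LAMB3, chains of the laminin that anchors epithelia through hemidesmosomes, stood at 1.73 ± 0.129 and 3.16 ± 0.390 FPKM. LAMA1, LAMB4 and LAMC3 had at most 9 counts in any library and were not tested.

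**Figure D1:**
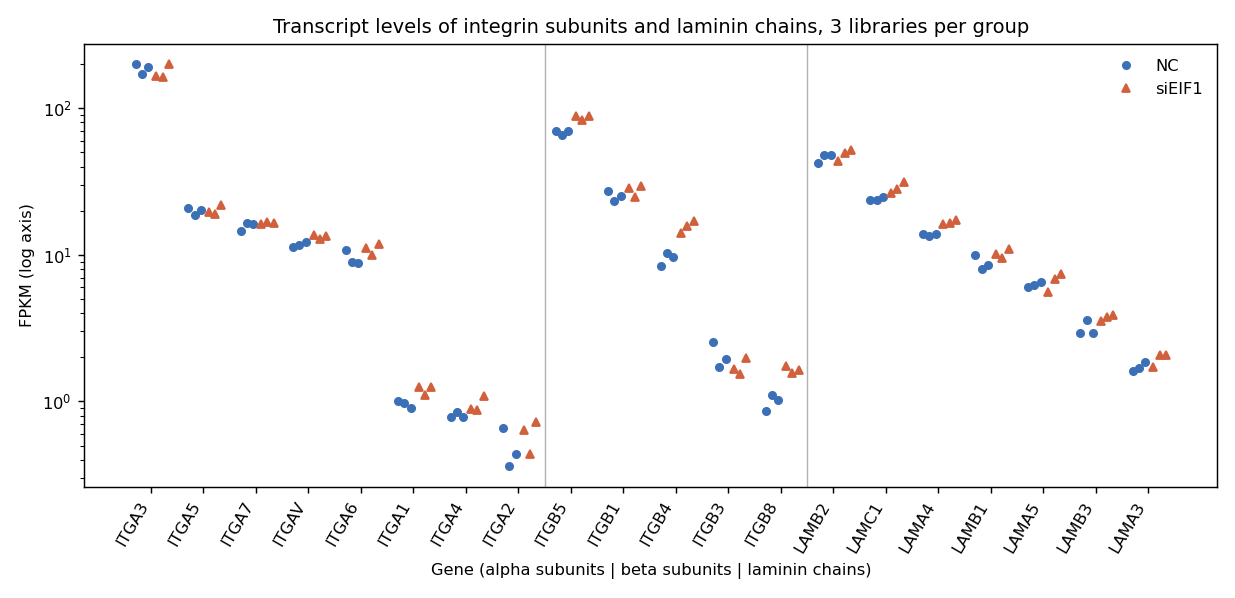
FPKM on a log axis of the integrin alpha subunits, integrin beta subunits and laminin chains with a mean of at least 0.1 in the NC group among those that passed the filter on low counts and are reported here, ordered by that mean; circles are the 3 NC and triangles the 3 siEIF1 libraries. ITGA3 stands above every other subunit or chain in each library, and the siEIF1 triangles lie above all NC circles for ITGB5, ITGB4, ITGB8, ITGAV, ITGA1, ITGA4, LAMA4 and LAMC1.

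Of the 53 genes, 46 passed the filter on low counts and were tested together with all other genes. A gene is called where edgeR gives an adjusted p under 0.05. In the siEIF1 group 15 of the 46 were higher, or 32.6%, against 10.2% of the 16749 genes tested and 17.6% of the 5297 tested genes whose counts averaged 1000 or more. Of the 31 members that abundant, 11 were called higher, or 35.5%. By the same edgeR test 0 members were called lower, where 10.4% of all tested genes and 13% of those averaging 1000 counts were, and 1 of them, FLNC, had an unadjusted p under 0.05 with a negative log2 fold change. DESeq2 and limma also called 0 members lower. Counting both directions, the calls took in 20.6% of all tested genes. Over the 46 members the log2 fold change had a median of 0.17, against 0.0033 over all tested genes, and 39 of the 46 were positive. The CPM values (counts divided by the scaled library size) of the siEIF1 libraries all lay above those of the NC libraries in 18 members, or 39.1%, against 18.2% of all tested genes, and lay below them in 0 members, against 18.9%. The changes were small. When called genes also had to differ by a factor of more than 2 up, or to under 0.5 of the NC level, edgeR kept 0 members (0 also at an unadjusted p under 0.05, and 0 by DESeq2 and by limma), against 0.4% of all tested genes higher and 1.31% lower. The values are levels in bulk RNA relative to the other genes of a library, so that fewer cells of a kind and less RNA per cell cannot be told apart.

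**Figure D2:**
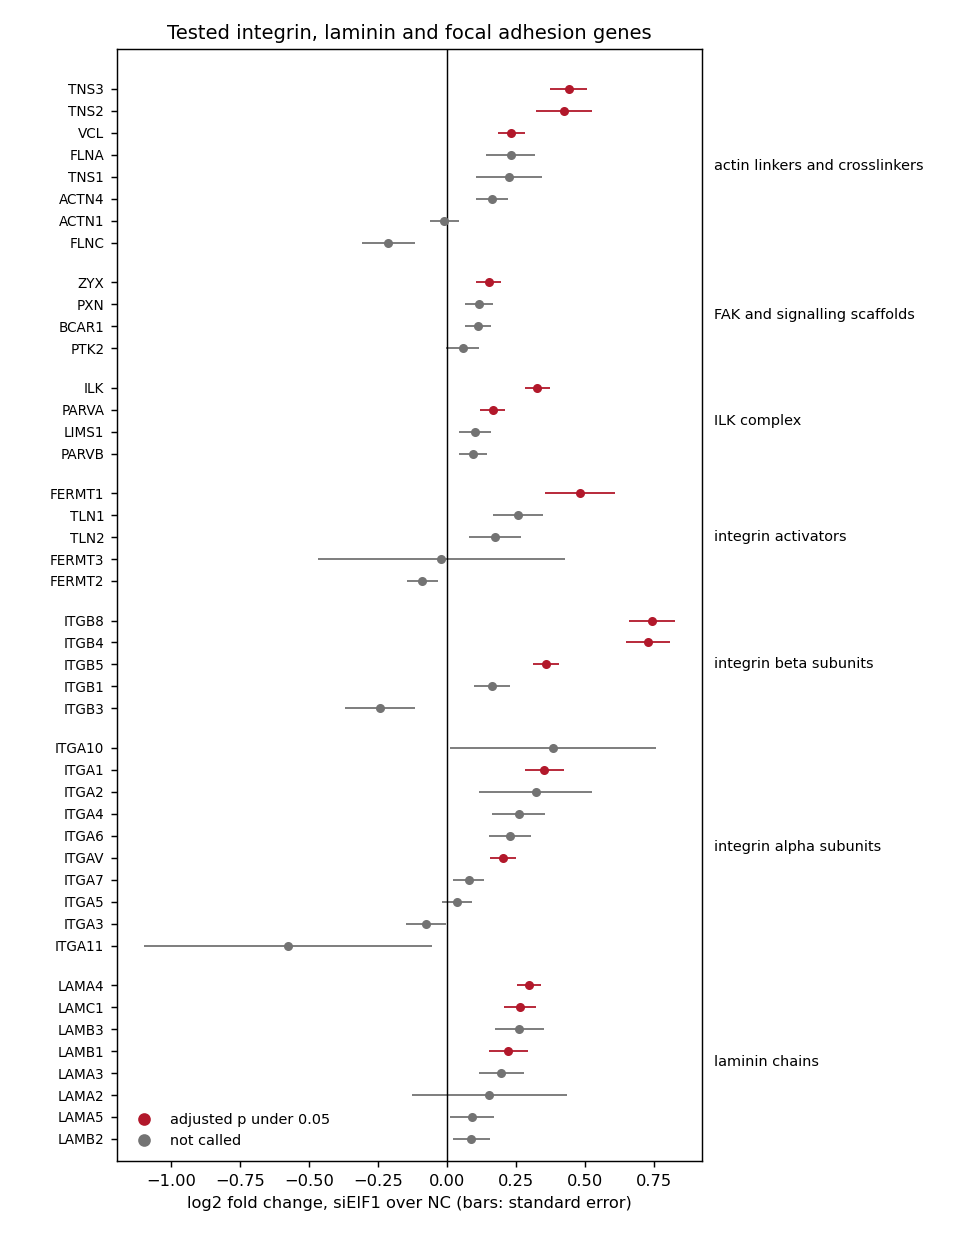
log2 fold change of siEIF1 over NC for 44 of the 46 tested genes, grouped by role, with bars of 1 standard error; red marks an adjusted p under 0.05 by edgeR and grey the other genes. All 15 red points lie to the right of 0, ITGB8 and ITGB4 farthest, and FLNC and ITGB3 lie to its left.

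The beta subunits held the largest changes, and 3 of the 5 tested were called higher. This stands beside 10.2% of all tested genes and 17.6% of those averaging 1000 or more counts. A share of so few genes is uncertain. ITGB8, which with ITGAV binds latent TGF-beta, had FPKM values of 0.86, 1.10 and 1.03 in the NC and 1.73, 1.56 and 1.64 in the siEIF1 libraries. All siEIF1 values lay well above all NC values, at a log2 fold change of 0.74 (standard error 0.084, adjusted p = 4.84e-05). ITGB4, the beta subunit of the hemidesmosome integrin, had FPKM values of 8.35, 10.35 and 9.71 in the NC and 13.98, 15.60 and 16.88 in the siEIF1 libraries. Here too the groups were apart, at a log2 fold change of 0.73 (standard error 0.079, adjusted p = 3.07e-05). ITGB5 had FPKM values of 69.81, 66.01 and 70.01 in the NC and 88.19, 83.30 and 88.83 in the siEIF1 libraries. The spread within each group was a small part of the gap between them, and the log2 fold change was 0.36 (standard error 0.047, adjusted p = 0.000159).

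ITGB1, the common partner of most alpha subunits, had FPKM values of 27.04, 23.18 and 25.02 in the NC and 28.61, 24.86 and 29.65 in the siEIF1 libraries. These ranges overlapped and ITGB1 was not called (log2 fold change 0.16, adjusted p = 0.0997). It was called without NC replicate 1 and without siEIF1 replicate 2, at log2 fold changes up to 0.22. ITGB3 was lower on average, at 1.73 ± 0.227 FPKM in the siEIF1 group, without passing the test (log2 fold change -0.24, adjusted p = 0.210), and the log2 fold change was -0.065 without NC replicate 1. The summed FPKM of the beta subunits was 106.3 ± 3.40 for NC and 133.4 ± 6.09 for siEIF1, 1.25 times the NC mean.

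Of the 10 tested alpha subunits, 2 were called higher, beside 10.2% of all tested genes and 17.6% of those averaging 1000 or more counts. With so few genes such shares cannot be told apart. ITGA1, a collagen receptor subunit, had FPKM values of 1.0, 0.98 and 0.90 in the NC and 1.26, 1.11 and 1.26 in the siEIF1 libraries. All siEIF1 values were above all NC values, at a log2 fold change of 0.35 (standard error 0.070, adjusted p = 0.00314), but the call was lost with limma on FPKM under each pseudocount and filter (adjusted p up to 0.178). The gene PELO lies on the same strand within the ITGA1 locus and had a log2 fold change of -0.17 (adjusted p = 0.0485). ITGAV, the alpha subunit shared by ITGB5 and ITGB8, had FPKM values of 11.31, 11.59 and 12.17 in the NC and 13.65, 12.77 and 13.40 in the siEIF1 libraries. The change was 15.1% (log2 fold change 0.20, standard error 0.046, adjusted p = 0.00745). The changes of ITGB5 and ITGB8 were 28.2% and 67.5%.

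ITGA6, the partner of ITGB4, had FPKM values of 10.78, 8.95 and 8.75 in the NC and 11.07, 9.99 and 11.88 in the siEIF1 libraries. The NC replicate 1 value lay within the siEIF1 range, and ITGA6 was not called (log2 fold change 0.23, adjusted p = 0.0501). ITGA6 was called higher by DESeq2, with upper-quartile scaling, with at least 10 counts in every library and with no filter on low counts. The same held with the replicate number as a block, and by edgeR without NC replicate 1 (log2 fold change 0.33, adjusted p = 0.00478). ITGA3 had FPKM values of 199.93, 172.07 and 189.81 in the NC and 165.02, 162.26 and 198.75 in the siEIF1 libraries. The groups overlapped and no difference was detected for this most abundant subunit (log2 fold change -0.076, standard error 0.072, adjusted p = 0.515). ITGA5 and ITGA7 were also not called, with log2 fold changes of 0.036 and 0.078. Since ITGA3 outweighs the others, the summed FPKM of alpha subunits was 246.5 ± 15.1 for NC and 239.0 ± 23.1 for siEIF1.

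All 9 tested laminin chains had a positive log2 fold change, and 3 of them were called. Of all tested genes 10.2% were called higher, and of those averaging 1000 or more counts 17.6%. With so few chains the share is uncertain. LAMA4, a chain of laminins in vessels and mesenchymal matrix, had FPKM values of 13.91, 13.38 and 13.80 in the NC and 16.17, 16.37 and 17.24 in the siEIF1 libraries. The groups were clearly apart (log2 fold change 0.30, standard error 0.045, adjusted p = 0.000468). LAMC1, the gamma chain of most laminins, had FPKM values of 23.80, 23.76 and 24.93 in the NC and 26.38, 27.97 and 31.53 in the siEIF1 libraries. The siEIF1 libraries were again all higher, with the larger spread among themselves (log2 fold change 0.26, standard error 0.057, adjusted p = 0.00542).

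LAMB1, a widely used beta chain, passed the test although its groups overlapped. Its FPKM was 9.96, 8.04 and 8.52 in the NC and 10.11, 9.51 and 10.90 in the siEIF1 libraries (log2 fold change 0.22, adjusted p = 0.0387). The call was lost in 5 of the 6 fits that left out a library, all except the fit without NC replicate 1, with adjusted p up to 0.187. LAMB2, the most abundant chain, had FPKM values of 42.21, 48.13 and 47.77 in the NC and 43.68, 49.53 and 51.57 in the siEIF1 libraries. The groups overlapped and the log2 fold change was 0.088 (adjusted p = 0.408). The chains LAMA3 and LAMB3 had log2 fold changes of 0.20 and 0.26 and were not called (adjusted p = 0.109 and 0.0522).

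Talins and kindlins bind the tails of beta subunits and switch integrins to their active form. TLN1, the most abundant of them, had FPKM values of 35.27, 38.03 and 40.84 in the NC and 38.03, 43.49 and 53.15 in the siEIF1 libraries. The siEIF1 replicate 1 value fell inside the NC range and replicate 3 lay far above it, and TLN1 was not called (log2 fold change 0.26, standard error 0.090, adjusted p = 0.0607). Without siEIF1 replicate 1 it was called at 0.36 (adjusted p = 0.00239), and without siEIF1 replicate 3 the log2 fold change was 0.14 (adjusted p = 0.178). TLN2 had FPKM values of 2.55, 3.0 and 3.15 for NC and 2.72, 3.26 and 3.71 for siEIF1, which also overlapped (log2 fold change 0.17, adjusted p = 0.229). FERMT1, the kindlin of epithelia, was the only 1 of the 5 activators called higher, beside 10.2% of all tested genes. Its FPKM was 0.62, 0.59 and 0.67 in the NC and 0.81, 0.91 and 0.88 in the siEIF1 libraries, from 97 to 111 and from 150 to 162 counts. The groups did not overlap (log2 fold change 0.48, standard error 0.13, adjusted p = 0.0167), but the call was lost when NC replicate 1, NC replicate 2 or siEIF1 replicate 2 was left out (adjusted p up to 0.0774). FERMT2, the broadly expressed kindlin, had FPKM values of 5.21, 5.42 and 5.50 for NC and 5.02, 4.56 and 5.37 for siEIF1, which overlapped (log2 fold change -0.091, adjusted p = 0.292).

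ILK, PARVA, PARVB and LIMS1 encode the pseudokinase ILK and the parvins and PINCH with which it forms a complex on beta subunit tails. ILK had FPKM values of 28.41, 28.02 and 29.65 in the NC and 35.93, 34.60 and 35.98 in the siEIF1 libraries. It rose by 25.5% with little spread in either group (log2 fold change 0.33, standard error 0.044, adjusted p = 0.000184). Its gene on chromosome 11 (6603708 to 6610874, GRCh38, forward strand) overlaps TAF10 on the opposite strand, which had 65.7% as many counts and a log2 fold change of 0.089 (adjusted p = 0.372). PARVA stood at 9.58 ± 0.256 FPKM for NC and 10.6 ± 0.207 for siEIF1 (log2 fold change 0.16, standard error 0.044, adjusted p = 0.0181). This call was lost when NC replicate 2, NC replicate 3 or siEIF1 replicate 2 was left out (adjusted p up to 0.0872). PARVB and LIMS1 were not called, at log2 fold changes of 0.093 and 0.10. Together the FPKM of the 4 genes was 47.95, 47.35 and 49.73 in the NC and 56.83, 55.47 and 57.81 in the siEIF1 libraries.

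PTK2 (focal adhesion kinase, FAK), PXN (paxillin), BCAR1 (p130Cas) and ZYX (zyxin) carry signals at focal adhesions. Of these 4 genes 1 was called higher, beside 10.2% of all tested genes. ZYX, which gathers where adhesions are under tension, had FPKM values of 78.99, 79.01 and 82.63 in the NC and 88.32, 85.62 and 89.40 in the siEIF1 libraries. The groups did not overlap, but the difference was 11.0% (log2 fold change 0.15, standard error 0.045, adjusted p = 0.0294). The call was lost in each fit that left out a library except that without siEIF1 replicate 3, with adjusted p up to 0.107. PXN and BCAR1 had log2 fold changes of 0.11 and 0.11 and adjusted p-values of 0.133 and 0.121. PTK2 stood at 4.85 ± 0.257 FPKM for NC and 4.98 ± 0.469 for siEIF1 (log2 fold change 0.056, standard error 0.060, adjusted p = 0.569).

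Of the 9 genes that tie adhesions to actin, 3 were called higher, again an uncertain share. It stands beside 10.2% of all tested genes and 17.6% of those averaging 1000 or more counts. TNS3, a tensin that binds beta subunit tails and actin, had FPKM values of 7.24, 7.41 and 7.97 in the NC and 8.95, 10.19 and 11.16 in the siEIF1 libraries. All siEIF1 values exceeded all NC values (log2 fold change 0.44, standard error 0.067, adjusted p = 0.000491). TNS2 had FPKM values of 1.0, 1.03 and 1.14 in the NC and 1.19, 1.46 and 1.56 in the siEIF1 libraries. The groups were apart, but siEIF1 replicate 1 only narrowly so (log2 fold change 0.42, standard error 0.10, adjusted p = 0.0100), and the call was lost without siEIF1 replicate 2 (adjusted p = 0.0526). On the opposite strand TNS2 overlaps TNS2-AS1 and SPRYD3, which had 236% and 335% as many counts and were also called higher, with log2 fold changes of 0.23 and 0.19. TNS1 had FPKM values of 0.60, 0.72 and 0.83 for NC and 0.71, 0.80 and 0.97 for siEIF1, and these overlapping groups did not pass the test (log2 fold change 0.22, adjusted p = 0.215).

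VCL (vinculin), which strengthens the link of talin to actin, had FPKM values of 19.37, 19.52 and 20.29 in the NC and 22.27, 21.70 and 24.65 in the siEIF1 libraries. The siEIF1 libraries were all higher (log2 fold change 0.23, standard error 0.049, adjusted p = 0.00456). FLNA (filamin A), the most abundant actin crosslinker of the set, had FPKM values of 152.02, 169.89 and 178.28 in the NC and 164.38, 192.74 and 221.67 in the siEIF1 libraries. The groups overlapped through siEIF1 replicate 1, and FLNA was not called (log2 fold change 0.23, standard error 0.087, adjusted p = 0.0827). Without siEIF1 replicate 1 the log2 fold change was 0.33 (adjusted p = 0.00429), and the lowest value over the fits that left out a library was 0.14. FLNC (filamin C), the filamin of muscle, had FPKM values of 47.65, 51.31 and 55.58 in the NC and 35.65, 45.16 and 50.65 in the siEIF1 libraries. The estimate was negative (log2 fold change -0.21, adjusted p = 0.142), and of the 6 fits that left out a library FLNC was called lower in the 1 without siEIF1 replicate 3, at -0.31 (adjusted p = 0.0190), while without siEIF1 replicate 1 the log2 fold change was -0.085 (adjusted p = 0.418). ACTN1 and ACTN4, which crosslink actin, had log2 fold changes of -0.0095 and 0.16 and were not called. ACTN4 was called higher by DESeq2, with no filter on low counts, with the replicate number as a block and without siEIF1 replicate 1.

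**Figure D3:**
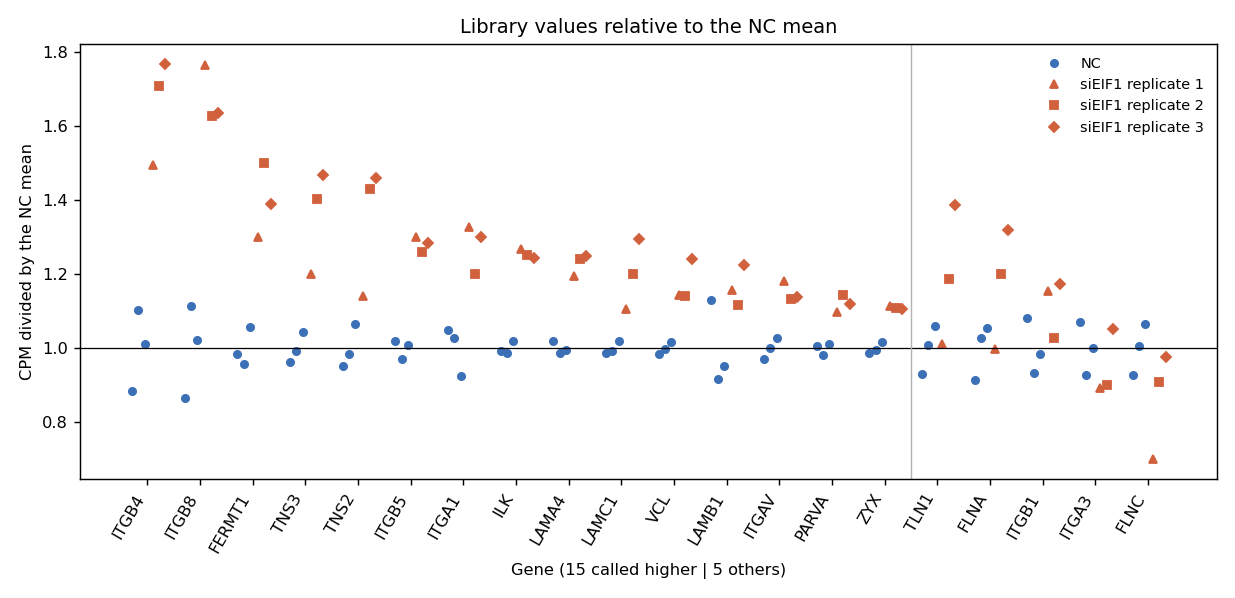
CPM of each library divided by the NC mean of the gene, for the 15 genes called higher (left of the line) and 5 other genes (right of it); circles are NC libraries, and the triangle, square and diamond are siEIF1 replicates 1, 2 and 3. For TLN1 and FLNA siEIF1 replicate 1 lies among the NC circles and replicate 3 well above them, whereas the 3 siEIF1 values of ILK, ITGB5 and ZYX lie close together.

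Promoter sequences are shown here as a description, and whether motifs in them bear on the changes was not tested. RefSeq (GRCh38.p14) gave 69 promoter windows, from 250 bases before to 50 after an annotated start, for 40 of the 53 genes. They were searched on both strands for the CArG box bound by SRF, for the TEAD motif GGAATG and for the AP-1 motif TGANTCA. The CArG box was found in 3 of the 69 windows (4.35%) and in 1.29% of all 35116 windows. The 3 windows were those of FLNA, ACTN1 and ITGB6, the last of which was too low to test. A share from so few windows is uncertain. The TEAD motif was found in 10 (14.49%, against 14.03% of all) and the AP-1 motif in 7 (10.1%, against 7.71% of all). In the lines below the motif is in capitals and each window is written 5′ to 3′ on the strand of its gene. The windows of FLNA and ACTN1 hold a CArG box 94 and 171 bases before the start, that of VCL a TEAD motif 171 bases before it, and those of LAMA3 and LAMB3, chains of the same laminin trimer, an AP-1 motif 125 and 67 bases before it:
FLNA, chrX:154374709-154374738, reverse strand: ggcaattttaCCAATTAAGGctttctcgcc
ACTN1, chr14:68977718-68977747, reverse strand: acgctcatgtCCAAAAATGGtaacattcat
VCL, chr10:73997933-73997962, forward strand: gcccctcccttaGGAATGggggaggggcgg
LAMA3, chr18:23872884-23872913, forward strand: ctggcacaggcTGACTCAtgtgtgaagttt
LAMB3, chr1:209651423-209651452, reverse strand: gtcagccactcTGACTCAttcactttgggc

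Of these 5 genes only VCL was called. Among all members with any of these motifs in a window, VCL was also the only gene called. The called genes FERMT1, ITGB4 and PARVA had no window to search. FLNA and ACTN1, which share the CArG box, had log2 fold changes of 0.23 and -0.0095. In the ACTN1 window a TEAD motif also lay 154 bases before the start, on the other strand. A match of letters is a description and not a binding site.

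Ratios of related genes within a library do not depend on how libraries are scaled. Of the 15 pairs chosen, 12 had a mean FPKM of at least 1 for both genes and were compared by a two-sided exact permutation test, whose smallest possible p with 3 libraries against 3 is 0.1. The FLNA to FLNC ratio was 3.19, 3.31 and 3.21 in the NC and 4.61, 4.27 and 4.38 in the siEIF1 libraries. This was the largest shift among the 12 pairs compared, 0.45 on the log2 scale, and the groups did not overlap (exact permutation test, p = 0.1, adjusted over the pairs 0.171). FLNC made up 22.1% of the summed filamin FPKM for NC and 17.3% for siEIF1. The ITGA3 to ITGA6 ratio was 18.5, 19.2 and 21.7 in the NC and 14.9, 16.2 and 16.7 in the siEIF1 libraries, again without overlap (exact permutation test, p = 0.1, adjusted 0.171).

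The groups also did not overlap, with the same p-values, for 5 other pairs. The log2 ratio was higher in siEIF1 by 0.20 for ITGB5 to ITGB1 and by 0.071 for PARVA to PARVB. It differed by -0.22 for LAMA5 to LAMA4 (-0.11 without siEIF1 replicate 1), by -0.17 for ACTN1 to ACTN4 and by -0.13 for ITGA5 to ITGB1. The ITGAV to ITGB1, TLN1 to TLN2, TNS2 to TNS3 and LAMB2 to LAMB1 ratios overlapped between the groups. No pair could pass an adjusted p of 0.05 with this number of libraries.

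**Figure D4:**
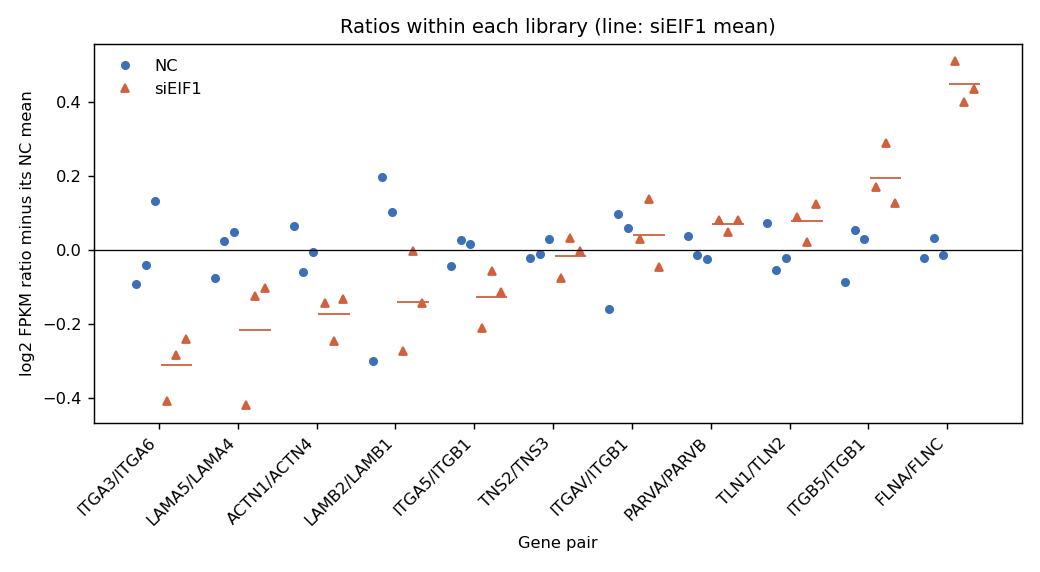
log2 ratio of the FPKM of 2 genes within each library, minus the mean of that ratio in the NC group, for 11 of the 12 pairs compared; circles are NC and triangles siEIF1 libraries, and a short line marks the siEIF1 mean. FLNA to FLNC stands highest, with a mean of 0.45, and ITGA3 to ITGA6 lowest, with a mean of -0.31.

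Other genes of cell adhesion were described by 5 lists of 140 genes outside the set, of which 129 were tested. Of these, 40 were called higher (31%, against 10.2% of all tested genes) and 12 lower (9.30%, against 10.4%), and their median log2 fold change was 0.083. Integrin ligands and basement membrane proteins had 16 of 29 tested genes higher, with a median of 0.23. By edgeR 0 of them were lower, as by DESeq2 and limma, and 1 was lower at an unadjusted p under 0.05. TGFBI, a secreted ligand of integrins, rose from 80.7 ± 2.31 to 111.8 ± 1.32 FPKM (log2 fold change 0.49, adjusted p = 1.61e-05). FBN1, a microfibril protein with an integrin-binding motif, rose from 6.87 ± 0.705 to 10.7 ± 1.09 (log2 fold change 0.66, adjusted p = 7.80e-05).

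Adaptors and actin linkers outside the set had 11 of 39 tested genes higher, with a median of 0.093. By edgeR, DESeq2 and limma 0 were lower, with 2 lower at an unadjusted p under 0.05. LPP, a relative of zyxin, rose from 1.59 ± 0.127 to 2.61 ± 0.056 FPKM (log2 fold change 0.73, adjusted p = 1.59e-06). CAV1, which forms caveolae, rose from 22.1 ± 1.24 to 33.5 ± 1.51 (log2 fold change 0.62, adjusted p = 6.24e-06). Signalling genes, in contrast, were split, with 6 of 40 higher and 9 lower and a median of 0.0061. RAC1, a small GTPase of protrusion, rose from 78.1 ± 3.50 to 96.3 ± 4.799 FPKM and PIK3R1, a regulatory subunit of PI3 kinase, from 1.79 ± 0.015 to 2.31 ± 0.285. The GTPase CDC42 fell from 10.2 ± 0.296 to 8.43 ± 0.271 and NEDD9, a relative of BCAR1, from 1.51 ± 0.125 to 0.950 ± 0.060 (log2 fold change -0.65, adjusted p = 0.000117).

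Of the 20 other adhesion receptors and their regulators, 7 were higher and 3 lower, with a median of 0.033. SDC3, a syndecan, rose from 6.93 ± 0.183 to 8.76 ± 0.395 FPKM and CD81, a tetraspanin, from 44.6 ± 1.59 to 50.6 ± 1.71. SLC3A2, which binds beta subunit tails and also carries amino acid transporters, fell from 61.5 ± 1.63 to 48.1 ± 1.25 (log2 fold change -0.33, adjusted p = 0.000215). PLAUR, the urokinase receptor, fell from 9.77 ± 1.03 to 7.35 ± 0.118 (log2 fold change -0.39, adjusted p = 0.00168). Of 6 further integrin subunits of leukocytes and platelets 1 was tested, and it was not called.

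**Figure D5:**
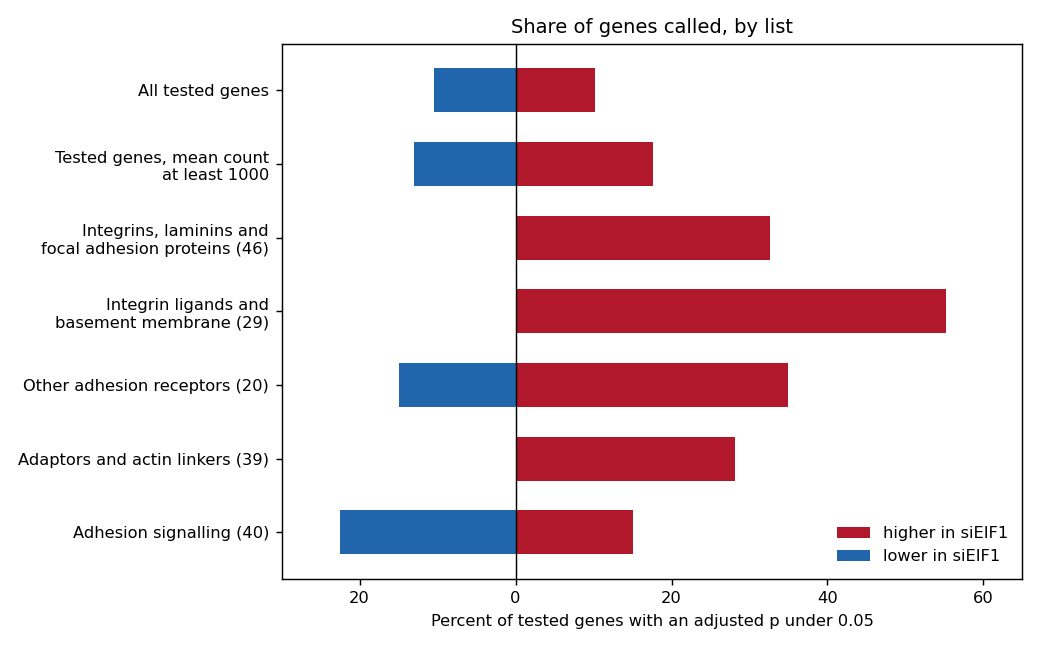
Percent of tested genes with an adjusted p under 0.05 by edgeR, higher (right) and lower (left) in the siEIF1 group, for all tested genes, the tested genes that averaged 1000 or more counts, the integrin, laminin and focal adhesion genes and 4 lists of other adhesion genes, with the number tested in parentheses for the last 5. The share called higher was 32.6% for the integrin, laminin and focal adhesion genes and 10.2% for all tested genes, and 22.5% of the signalling genes were called lower.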

How the data were processed

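RNA-seq counts and FPKM of 6 ARPE-19 libraries were used, 3 NC and 3 siEIF1, grouped by sample title. The authors trimmed reads with FASTX-Toolkit 0.0.13, aligned them to GRCh38 with HISAT2 and deposited counts of uniquely mapped reads per gene without normalization. FPKM values of 30275 genes, computed by the authors, come in a second deposited table. The counting program, its strand setting and the annotation release are not given in the sources used here, so counts of overlapping genes are uncertain. All columns were matched to a library, with 0 left over.

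Counts were filtered with filterByExpr, scaled by TMM (factors from 0.981 to 1.02) and fitted over 16749 genes in edgeR 4.0.16 (R 4.3.3) with its quasi-likelihood test, and p-values were adjusted by Benjamini-Hochberg over all of them. DESeq2 1.42.0, the tool of the study, and limma 3.58.1 on log2(FPKM + 1) and log2(FPKM + 0.1) were alternatives, as were RLE and upper-quartile scaling, other count filters, the replicate number as a block and leaving out each library. Standard errors were taken from the quasi-likelihood F statistic. The tests were checked on simulated counts. Per-library values are given for members with an adjusted p under 0.05 and a log2 fold change of at least 0.3 in size, for the most abundant member of each role and for their paired genes; those of LAMA4, LAMC1, ITGAV and VCL were added after they were seen. Of each list of other adhesion genes, the 2 with the smallest p in each direction are named. The genes, lists and pairs were chosen with earlier results of these data known. Gene models came from GENCODE release 44, matched by gene identifier. Low counts limit the precision of the least expressed members, whose errors are wider. The study describes the libraries of a group as biological replicates. Of the tested members 2, and of the gene pairs 1, enter the counts but are not reported individually here.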

Additional observations from a re-analysis of the deposited data

How the results depend on the processing

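EIF1 stayed low in every fit, between -3.61 and -3.56 on the log2 scale when a library was left out. The number of members called higher was 15 and lay between 11 and 21 when a library was left out. It was 17 with DESeq2, 10 with limma on log2(FPKM + 1) and on log2(FPKM + 0.1), and 5 with limma on log2(FPKM + 1) without a filter, where the 5 were ILK, ITGB4, ITGB5, ITGB8 and LAMA4. These 5 were called in every fit that was run. The limma fits with a filter lost ITGA1, LAMB1, PARVA, TNS2 and ZYX. ACTN4 and ITGA6 were gained by DESeq2, with no filter on low counts and with the block. Without that filter and with the block, FLNA, ITGB1, LAMB3 and TLN1 were gained too. Members called lower numbered 2 with no filter on low counts (FLNC and ITGB3) and from 0 to 1 when a library was left out (FLNC without siEIF1 replicate 3).

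It is not known whether the replicate numbers mark pairs, and the main fit did not use them. The deviations of same-numbered libraries from their group means correlated weakly, at 0.149, 0.0946 and 0.128. Those of differently numbered libraries correlated at values from -0.182 to 0.0698, all lower. Deviations within a group cancel out, so positive values for same-numbered libraries push the others down. The contrast therefore does not settle whether the numbers mark pairs. With the replicate block 24 of the 46 tested members were higher and 1, FLNC, was lower. Calls also grew over all 16749 tested genes, to 2149 higher and 2128 lower, from 1702 and 1744.

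Over all tested genes, those called higher numbered 1012 with limma on log2(FPKM + 0.1), 1028 on log2(FPKM + 1) and 588 without a filter, where 826 were lower, against 1702 and 1744. With libraries left out, 1118 to 1709 were higher and 1124 to 1763 lower. Past the fold limit, 67 were higher by edgeR, 36 by DESeq2, 34 with at least 10 counts in every library and 44 to 93 with libraries left out. In limma with a pseudocount of 0.1 the numbers were 5 higher and 113 lower, and with a pseudocount of 1 they were 1 and 19, with or without a filter. The 40 other adhesion genes called higher became 24 with limma at either pseudocount, 10 without a filter (with 4 lower) and 26 to 36 with libraries left out, where 26 came without NC replicate 1 and also without NC replicate 3. A log2(FPKM + pseudocount) scale understates changes of low genes by its construction. Ratios of the compared gene pairs and summed FPKM moved by less than 1 SD in all alternatives, LAMA5 to LAMA4 from -0.27 to -0.11 when a library was left out. Leaving out 1 of 3 libraries moves a group mean by less than 1 SD by construction. The small shifts in those fits therefore do not show that the values are stable. Of 465 refits of 31 named genes 0 reversed, 43 lost a call and 6 gained one. Depth limits what can be said of ITGA11, FERMT3, ITGA10 and LAMA2, with mean counts from 10.3 to 21.7.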

Other observations

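Ratios of 3 integrin beta subunits to their alpha partner were looked at after the values were seen and are given without a test. The ITGB4 to ITGA6 ratio of FPKM was 0.775, 1.16 and 1.11 in the NC and 1.26, 1.56 and 1.42 in the siEIF1 libraries. The ITGB8 to ITGAV ratio was 0.0760, 0.0949 and 0.0846 in the NC and 0.127, 0.122 and 0.122 in the siEIF1 libraries. The ITGB5 to ITGAV ratio was 6.17, 5.70 and 5.75 in the NC and 6.46, 6.52 and 6.63 in the siEIF1 libraries. In each case the siEIF1 ratios lay above all NC ratios, but these 3 beta subunits were the ones called higher. ITGB3, another partner of ITGAV, was left out of these ratios. Its log2 fold change was -0.24 (edgeR, adjusted p = 0.210).

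The siEIF1 libraries differed among themselves in many members. Of the 46 tested members, siEIF1 replicate 1 had the lowest CPM of its group in 27 and siEIF1 replicate 3 the highest in 29. In the NC group replicate 1 was lowest in 26 and replicate 3 highest in 23. The same order over all tested genes was not looked at, so it may not be particular to these members. Without siEIF1 replicate 1, 21 members were called higher, among them FLNA, TLN1, TLN2, ACTN4, LAMA3, LAMA5 and LAMB3, which were not called with all libraries. Over all tested genes 1652 were called higher in that fit, against 1702 with all libraries.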
